A study of Mus musculus with 6 samples.

Results

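The 8 genes described here encode the pore-forming subunits of pacemaker, calcium and potassium channels, measured in the embryonic ventricle. They were chosen by name, as the rows of the deposited expression table for Hcn4, Cacna1d, Cacna1g, Cacna1h, Kcnq1, Kcnh2, Kcnj3 and Kcnj5, and all 8 were found among the 23284 genes of the table. None of them encodes a sodium channel.

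RNA-seq was made from heart ventricles at E9.5 of 3 WT and 3 KD embryos of C57BL/6 background. All 6 embryos were tetraploid chimeras, in which the embryo proper grows from injected ES cells, made with WT ES cells or with ES cells in which both alleles of the lncRNA Tbx5ua (genotype Tbx5ua -/-) carry tandem polyadenylation signals that stop its transcription early. Cre recombinase had removed the selection markers from the KD cells, and the labels do not say which KD ES cell line each embryo came from. The table gives 1 value per gene for each group, in FPKM (fragments per kilobase of transcript and per 1000000 fragments mapped), and names the KD group KO. No value of a single embryo was at hand, so no SD and no test of a difference is given, the depth behind each value is unknown, and whether a difference exceeds the spread between embryos was not assessed here.

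Heart cells at this stage beat through the concerted opening of a few channel types. Hcn4 encodes the channel of the pacemaker current, which slowly depolarizes the membrane between beats and marks the sinus node. Cacna1d encodes an L-type calcium channel pore, and Cacna1g and Cacna1h encode T-type pores, which open at more negative voltages. Kcnq1 and Kcnh2 form the slow and rapid delayed rectifier potassium channels that end the action potential, and their human counterparts are long QT syndrome genes. Kcnj3 and Kcnj5 encode the subunits of the G protein-gated potassium channel through which acetylcholine slows the heart.

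Channels that select potassium, or potassium with sodium, share a short signature in the pore: a glycine, a tyrosine or phenylalanine, and a second glycine. It is shown here because it is the feature that joins the pacemaker and potassium channel genes, while a search for the signature, preceded by threonine, serine or cysteine and then isoleucine or valine, gave no match in the coding sequences of the 3 calcium channel genes. The coding stretches below, for Hcn4, Kcnh2, Kcnj3 and Kcnj5, are of 30 bases, read from the GENCODE M21 transcripts (GRCm38) 5′ to 3′, with the codons of the 3 signature residues in capitals.
Hcn4: atgctgtgcattGGGTATGGAcggcaggca
Kcnh2: ctcaccagcgtgGGCTTTGGCaatgtctct
Kcnj3: gaggccaccatcGGCTATGGCtaccgctac
Kcnj5: gaaacaaccattGGGTATGGCttcagagtc
Each of these coding sequences had 1 match. The signature lay at residues 480 to 482 of 1201 in Hcn4 (chr9:58855579-58855608, plus strand, exon 4 of 8) and at 628 to 630 of 1162 in Kcnh2 (chr5:24325546-24325575, minus strand, exon 7 of 15). It lay at 145 to 147 of 501 in Kcnj3 (chr2:55437621-55437650, plus strand, exon 1 of 3) and at 151 to 153 of 419 in Kcnj5 (chr9:32322550-32322579, minus strand, exon 2 of 3). The middle residue is phenylalanine in Kcnh2 and tyrosine in the other 3 genes. The calcium channel proteins are longer, with 2179 residues for Cacna1d, 2381 for Cacna1g and 2359 for Cacna1h.

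All values below are the authors' group values. Kcnj5 had the highest level of the 8 genes, with 14.6 in WT and 11.7 FPKM in KD. Kcnh2 followed with 11.4 in WT and 11.6 FPKM in KD, so that the level of Kcnj5 was 1.28 times that of Kcnh2 in WT and 1.01 times in KD. Cacna1h had 5.0 and 5.68 FPKM, Hcn4 had 3.57 and 2.89 FPKM, and Kcnq1 had 1.29 and 2.21 FPKM in WT and KD. Cacna1d and Kcnj3 were below 1 FPKM in both groups, and Cacna1g was near 0. The order of the 8 levels was identical in WT and KD. Since no spread over embryos was at hand, neighbours in this order cannot be called different, and the closest pairs were Kcnj5 with Kcnh2 in KD and Cacna1d with Kcnj3, whose levels had a ratio of 1.05 in WT and 1.10 in KD.

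**Figure D1:**
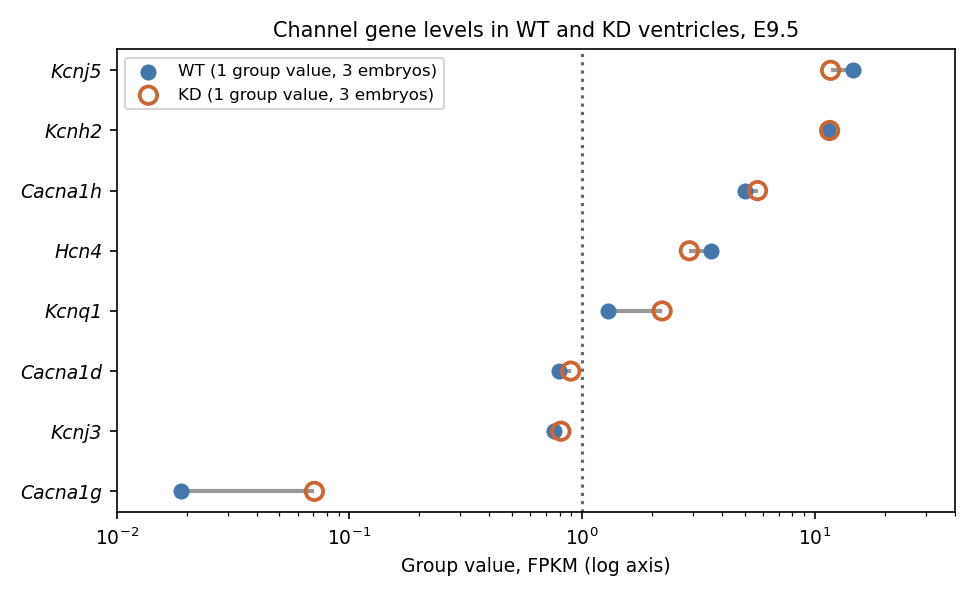
Level of each of the 8 channel genes in FPKM on a log axis, with filled points for the WT group value and open points for the KD group value, each from 3 embryos. The dotted line marks 1 FPKM. Kcnq1 and Cacna1g show the widest gaps on this axis, and Cacna1g lies below 0.1 FPKM in both groups.

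For the comparison of KD with WT, the ratio of the group values was taken without a pseudocount, and genes with a mean of the 2 group values of at least 1 FPKM were counted when the ratio passed 1.5-fold. Of the 8 genes 5 had such a mean, and 1 of these 5, Kcnq1, was past 1.5-fold, in the direction of a higher level in KD. Over all 11309 genes with such a mean, 6.56% were past 1.5-fold, 3.89% being higher and 2.67% lower in KD. The median log2 ratio (KD over WT) was 0.02 over the 5 genes and 0.13 over all 8 genes, beside 0.00420 over the 11309 genes. The ratios of the 5 genes ran from -0.32 to 0.78. With 1 value per group these counts describe the table and are no test, and in RNA from whole ventricles fewer cells of a type and less RNA per cell cannot be told apart.

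**Figure D2:**
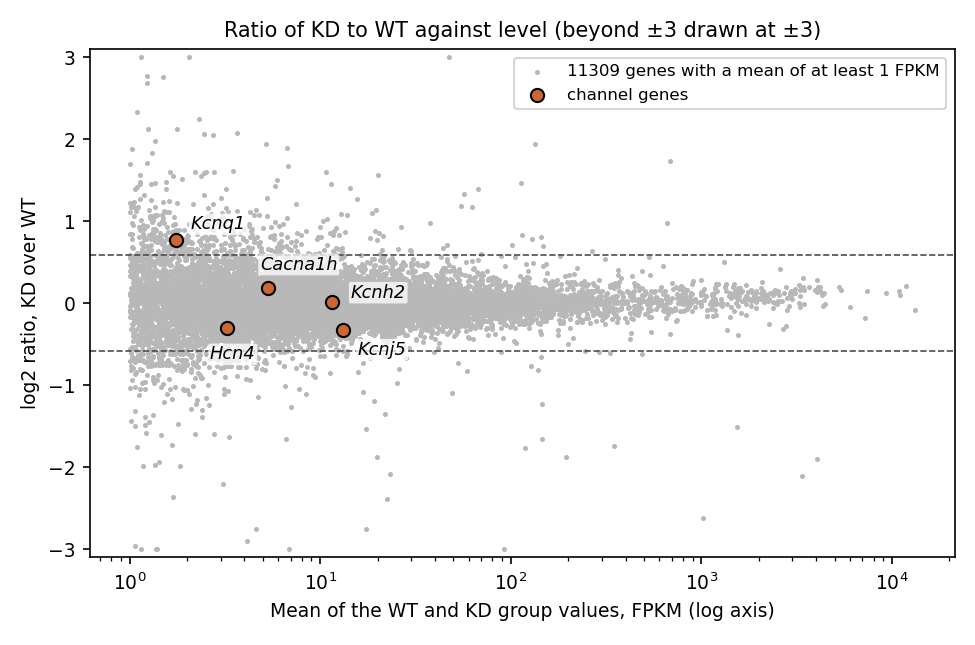
Log2 ratio of the KD to the WT group value against the mean of both values in FPKM (log axis) for 11309 genes (grey) and the 5 channel genes with a mean of at least 1 FPKM (orange). Dashed lines mark 1.5-fold, and ratios beyond 3 either way are drawn at the edge. Kcnq1, at 0.78, lies past the upper line at a level where the grey points spread widely, and the other 4 lie between the lines.

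Hcn4 lies on chromosome 9 from 58823512 to 58860955, on the plus strand, and no other gene of the table or of the annotation overlaps it. Its level of 3.57 in WT and 2.89 FPKM in KD gave a log2 ratio of -0.30, or 1.23-fold lower in KD. Of the 3329 genes with a mean from 3 to below 10 FPKM, the central 90% had log2 ratios from -0.45 to 0.53, which holds the value of Hcn4. Of its relatives, Hcn3 had 0.233 and 0.299 FPKM, and Hcn2 had 0.0282 FPKM in WT and was listed at 0 in KD. Among 94 channel genes, the 3 nearest to Hcn4 by Euclidean distance of log2(FPKM + 1) in WT and KD were Kcnj6 (distance 0.0885), Cacna1c (0.245) and Cacna2d2 (0.257), a likeness over 2 group values only.

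The T-type calcium channel was represented by Cacna1h. Its gene, on chromosome 17 from 25370553 to 25433783 on the minus strand, had 5.0 FPKM in WT against 5.68 in KD, a log2 ratio of 0.18. The table joins it in 1 locus with Tpsg1, a mast cell protease gene on the opposite strand, which was listed at 0 in both groups. Cacna1g, on chromosome 11 from 94408391 to 94474198 on the minus strand, had 0.0188 in WT and 0.0707 FPKM in KD. Cuffdiff, the program that made the table, marked Cacna1g alone of the 8 genes as not tested, its mark for too few fragments. Over the longest coding transcript the Cacna1g levels amount to 0.158 and 0.593 fragments per 1000000 mapped, against 41.2 and 46.7 for Cacna1h. The log2 ratio of Cacna1g, 1.91, became 0.07 when 1 was added to both values, and 72.7% of the 1330 genes with a mean from 0.01 to below 0.1 FPKM were past 1.5-fold, so no difference can be read from it. Cacna1h accounted for 99.6% of the summed level of the 3 T-type genes in WT and 98.8% in KD.

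Cacna1d, on chromosome 14 and the minus strand, had 0.796 FPKM in WT against 0.894 in KD, a log2 ratio of 0.17. The table gives it a locus from 30009000 to 30527056 together with Chdh and Dcp1a, genes of the opposite strand. Chdh had 0.0382 and 0.0607 FPKM, and Dcp1a had 4.18 and 3.91 FPKM, above Cacna1d. Smart-Seq2 libraries do not mark strand, so reads from where these genes overlap Cacna1d cannot be assigned by strand. Cacna1d was the second L-type gene by level. Cacna1c, which encodes the main L-type pore of the heart, had 3.0 in WT and 2.50 FPKM in KD (log2 ratio -0.27), 3.77 times the level of Cacna1d in WT and 2.79 times in KD. Cacna1s, the skeletal muscle pore, had 0.591 and 0.491 FPKM, and Cacna1f, a pore of the retina, was listed at 0 in both groups. Cacna1d thus held 18.1% of the summed L-type level in WT and 23.0% in KD, under the same limit on strand.

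Kcnj5 and Kcnj3 combine in the acetylcholine-gated channel of the heart. Kcnj5, on chromosome 9 from 32314783 to 32344237 on the minus strand, had 14.6 in WT and 11.7 FPKM in KD, 1.25-fold lower with a log2 ratio of -0.32. The central 90% of the 2785 genes with a mean from 10 to below 30 FPKM lay between -0.33 and 0.37, and Kcnj5 lies just inside the lower bound. Kcnj3, on chromosome 2 from 55437156 to 55595525 on the plus strand, had 0.758 FPKM in WT against 0.811 in KD, a log2 ratio of 0.10. The partner subunits were therefore unequal in level, with Kcnj5 at 19.3 times Kcnj3 in WT and 14.4 times in KD. Kcnj6, another subunit of the family and best known from neurons, stood between them with 3.65 and 2.67 FPKM (log2 ratio -0.45), and Kcnj9 was listed at 0 in both groups. Kcnj5 held 76.8% of the summed level of the 4 subunits in WT and 77.1% in KD.

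The signal that opens this channel runs from the muscarinic receptor Chrm2 through inhibitory G proteins. Chrm2 had 0.385 in WT and 0.583 FPKM in KD. Of 17 genes listed for muscarinic and adrenergic inputs, 11 had a mean of at least 1 FPKM, 0 of these were past 1.5-fold higher and 1 lower, and their median log2 ratio was 0.05. The lower gene was Rgs6, which speeds the shutdown of G protein signals to this channel, with 2.69 in WT and 1.63 FPKM in KD (log2 ratio -0.72), in a locus shared with another gene of the table. The G protein subunit genes had higher levels, up to 2103 in WT and 2249.5 FPKM in KD for Gng5 and 186 and 191 FPKM for Gnb1.

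Kcnh2, on chromosome 5 from 24319589 to 24351604 on the minus strand, had the log2 ratio nearest 0 of the 8 genes, with 11.4 in WT and 11.6 FPKM in KD and a log2 ratio of 0.02. The sign is not defined by the data, since scaling each group to a sum of 1000000 gave -0.01. Kcnh2 held 85.0% of the summed level of the 3 ERG genes in WT and 86.2% in KD. Kcnh7 had 1.82 and 1.67 FPKM and Kcnh6 had 0.193 and 0.188 FPKM. The table gives 1 value per gene, so the long and short forms of Kcnh2, which start from different promoters, are summed. In the GENCODE annotation Gm15589 overlaps Kcnh2 on the opposite strand, as Gm26794 does Kcnj3, and neither shares a locus with it in the table.

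Kcnq1, on chromosome 7 from 143107254 to 143427042 on the plus strand, had 1.29 in WT and 2.21 FPKM in KD, a difference of 0.920 FPKM, 1.71-fold with a log2 ratio of 0.78. Over its longest coding transcript of 3029 bases these levels amount to 3.90 and 6.69 fragments per 1000000 mapped. Of the 2293 genes with a mean from 1 to below 3 FPKM, 11.3% were past 1.5-fold higher in KD, and the central 90% of their log2 ratios ran from -0.71 to 0.84, which holds Kcnq1. Adding a pseudocount of 1 to both values gave 0.49, under the log2 value of 0.58 that stands for 1.5-fold. Kcnq1 is an imprinted gene, and the antisense lncRNA Kcnq1ot1 starts inside it. The table places both, with 4933417O13Rik, in 1 locus, and reads of the opposite strands cannot be told apart in Smart-Seq2 libraries, which do not mark strand. Kcnq1ot1 had 1.93 in WT and 1.49 FPKM in KD (log2 ratio -0.38), and 4933417O13Rik had 0.331 and 0.335 FPKM.

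Kcnq1 channels take their slow gating from small Kcne subunits. Kcne1, the classic partner, had 2.34 in WT and 3.04 FPKM in KD (log2 ratio 0.38). Kcne3, which holds Kcnq1 channels open in epithelia, had 0.204 in WT and 2.09 FPKM in KD, 10.3-fold with a log2 ratio of 3.36. Its mean reached 1 FPKM only through the KD value, and over its transcript of 1323 bases the levels amount to 0.269 and 2.76 fragments per 1000000 mapped, fewer than for Kcnq1. Kcne2 had 0.622 and 0.746 FPKM, and Kcne4 was listed at 0 in WT and had 0.0416 FPKM in KD. Kcne3 made up 6.43% of the summed level of the 4 subunit genes in WT and 35.3% in KD. The other Kcnq gene with a mean of at least 1 FPKM was Kcnq5, with 1.07 and 1.39 FPKM (log2 ratio 0.38).

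**Figure D3:**
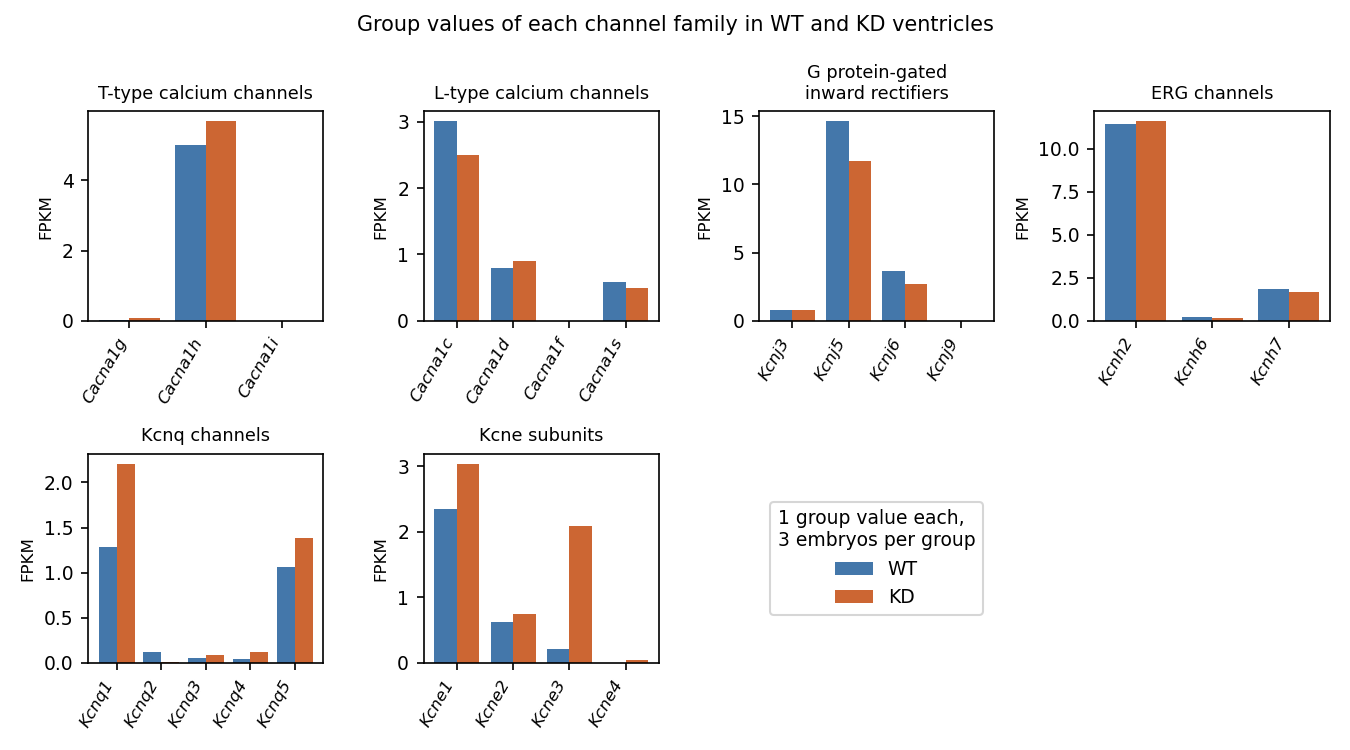
Group values in FPKM (linear axes from 0, scaled to each family) of the genes of 6 channel families in WT (blue) and KD (orange), 1 value per group of 3 embryos with no error bar available. Cacna1h, Kcnj5 and Kcnh2 hold most of their families in both groups, and Kcne3 goes from 0.204 FPKM in WT to 2.09 FPKM in KD.

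The group values of the epicardial markers were higher in KD for all 7 genes on the list, and their part in the values of Kcnq1 and Kcne3 was not tested. Of the 7 markers 6 were past 1.5-fold, and all 7 had a median log2 ratio of 1.10 and a summed level of 47.5 in WT and 97.5 FPKM in KD. The 6 were Tcf21 (11.9 and 25.5 FPKM), Upk1b (9.17 and 22.1 FPKM), Upk3b (7.80 and 20.7 FPKM), Tbx18 (3.46 and 6.56 FPKM), Aldh1a2 (0.872 and 1.74 FPKM) and Bnc1 (0.439 and 1.62 FPKM), and Wt1 had 13.8 and 19.2 FPKM. Aldh1a2 and Bnc1 were below 1 FPKM in WT and reached the mean only through the KD value. The share of all genes past 1.5-fold fell with level. It was 19.3% from 1 to below 3 FPKM and 5.92% from 3 to below 10. It was 2.23% from 10 to below 30 and 1.41% from 30 FPKM up. Aldh1a2 and Bnc1 lay in the lowest of these ranges, and the cardiomyocyte markers except Ttn in the highest. Counts of marker lists at unlike levels are therefore not directly comparable. Of 12 cardiomyocyte markers 0 were past 1.5-fold (median -0.03), and Myl2, the ventricular light chain, had 10924 and 12702 FPKM. Of 9 endocardial markers 0 were past it (median 0.11), and of 7 erythroid markers in the table none was (0 genes, median 0.11). Of 7 atrial markers 4 had a mean of at least 1 FPKM, with a median of 0.14, and Sln was listed at 0 in both groups. Nr2f2 was past 1.5-fold, with 2.01 and 4.15 FPKM, and shares its locus with another gene of the table. Myl4, Stard10 and Nppa had log2 ratios of -0.04, 0.08 and 0.20. The other atrial markers, Nr2f1 and Vsnl1, had means below 1 FPKM, with 0.552 and 1.07 FPKM and with 0.555 and 1.14 FPKM. Among 13 neural and neural crest markers in the table Neurog1 and Neurod1 were listed at 0 in both groups, while Tubb3 had 12.2 and 26.9 FPKM and Stmn2 and Elavl4 were past 1.5-fold lower (log2 ratios -0.97 and -0.84), both reaching the mean only through the WT value. Of 5 smooth muscle markers 4 had a mean of at least 1 FPKM, with a median log2 ratio of -0.33. Tagln was past 1.5-fold, with 400.3 and 263 FPKM (log2 ratio -0.61), in a locus shared with another gene of the table. Cnn1, Acta2 and Smtn had log2 ratios of -0.38, -0.28 and 0.04. Myh11 had 0.258 and 0.0402 FPKM. Of 7 macrophage markers Lyz2 alone had a mean of at least 1 FPKM, with 20.3 and 16.5 FPKM (-0.30).

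Of 88 other channel genes listed, 87 were in the table and 21 had a mean of at least 1 FPKM. Of these 21 genes 14 had a ratio above and 7 below 0, and the median log2 ratio was 0.13. Past 1.5-fold were 3 of the 21, with the higher value in KD. Over all 11309 genes with such a mean, 5739 had a ratio above and 5570 below 0, and 6.56% were past 1.5-fold. Most of the 21 had a mean from 1 to below 3 FPKM. In that range 19.3% of all genes were past 1.5-fold and 11.3% were past it with the higher value in KD, so the count does not set the channel genes apart. For 2 of the 3, Kcne3 and Kcnn2, the WT value was below 1 FPKM and the mean reached 1 FPKM only through the KD value, so their direction is partly set by the filter. The 3 were Kcne3, Cacnb3, a beta subunit that carries calcium channels to the membrane (1.73 FPKM in WT, 2.62 FPKM in KD, log2 ratio 0.60), and Kcnn2, a calcium-activated potassium channel (0.760 and 1.31 FPKM, log2 ratio 0.78), which shares its locus with another gene of the table. Cacnb3 came to no more than 1.5-fold when each group was scaled to a sum of 1000000. Cacng6 was the highest calcium channel subunit, with 6.77 and 9.54 FPKM (0.49), above Cacna2d2 with 2.86 and 3.14 FPKM (0.13). Among inward rectifiers and KATP channels, Abcc9, the sulfonylurea receptor of the heart, had 5.42 and 6.67 FPKM (0.30). Kcna5 was the one gene of 19 transient outward and shaker channel genes with a mean of at least 1 FPKM, with 1.16 and 1.04 FPKM (-0.15), and Kcnab1, a beta subunit of such channels, had 0.564 and 0.924 FPKM. Among two-pore and calcium-activated channels, Kcnk3 had 2.61 and 2.09 FPKM (-0.32) and Kcnn4 had 1.40 and 1.76 FPKM (0.33).

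**Figure D4:**
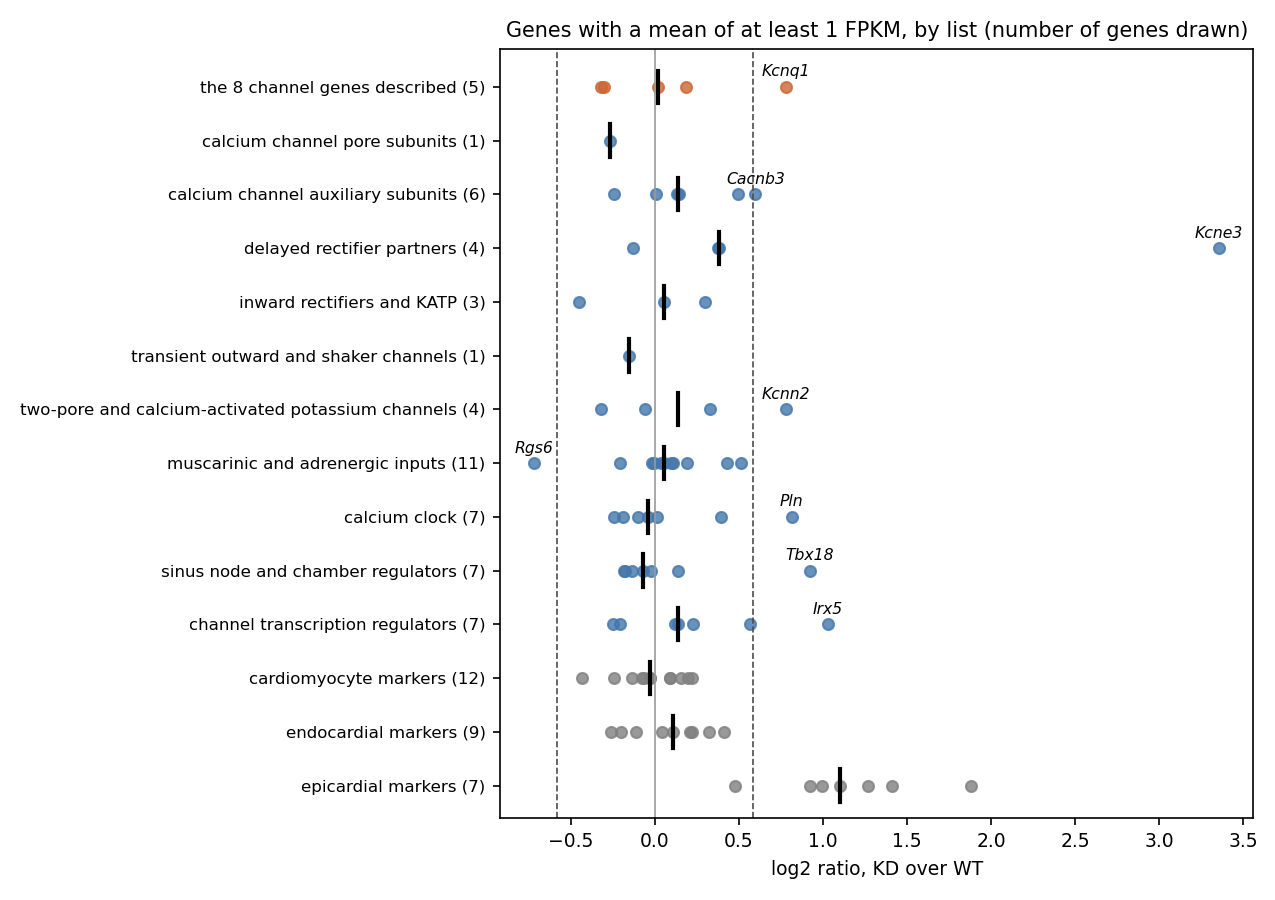
Log2 ratio of the KD to the WT group value for each gene with a mean of at least 1 FPKM, by list, with the number of genes in parentheses, a black bar at the median and dashed lines at 1.5-fold. Of the channel genes Kcnq1, Cacnb3, Kcne3 and Kcnn2 lie past a line, and the epicardial markers, drawn in grey at the bottom, have a median of 1.10.

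The second system of the heartbeat, the cycling of calcium through the sarcoplasmic reticulum, held 7 listed genes, all with a mean of at least 1 FPKM and a median log2 ratio of -0.04. Of these, 1 was past 1.5-fold, Pln, the inhibitor of the calcium pump, with 104 in WT and 183 FPKM in KD (log2 ratio 0.81), and it shares its locus with another gene in the table. Atp2a2, the pump itself, had 92.6 and 81.3 FPKM (-0.19).

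Promoters were read for the members because Tbx5ua is divergent from Tbx5, whose T-box protein binds sites built on the core element searched. The RefSeq promoter table (GRCm38.p6), which covers 250 bases before to 50 bases after each start, matched 5 of the 8 genes with 6 entries. Kcnq1, Cacna1g and Cacna1h had no entry. The T-box core element (letters AGGTGT, either strand) was found in 2 of the 6 entries, those of Hcn4 and Kcnj3, beside 13.7% of all 32851 promoters. The NK2 element (TNAAGTG) and the GATA element (AGATAA) were found in 0 of the 6, beside 11.5% and 11.2% of all promoters. The 250 bases before the start are shown for Hcn4 and Kcnj3, which hold the core element, and for Kcnj5, the partner of Kcnj3 with the highest level, which holds none. Capitals mark the core element, which lies on the minus strand relative to the gene in both and so reads as its reverse complement. Hcn4 is shown from chr9:58822699-58822948 (plus strand), Kcnj3 from chr2:55435720-55435969 (plus strand) and Kcnj5 from chr9:32344345-32344594 (minus strand).
Hcn4: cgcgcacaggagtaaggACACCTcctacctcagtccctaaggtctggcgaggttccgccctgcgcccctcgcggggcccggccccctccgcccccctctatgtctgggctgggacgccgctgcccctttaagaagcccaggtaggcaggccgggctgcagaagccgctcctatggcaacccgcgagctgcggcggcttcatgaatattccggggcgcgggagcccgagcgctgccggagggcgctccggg
Kcnj3: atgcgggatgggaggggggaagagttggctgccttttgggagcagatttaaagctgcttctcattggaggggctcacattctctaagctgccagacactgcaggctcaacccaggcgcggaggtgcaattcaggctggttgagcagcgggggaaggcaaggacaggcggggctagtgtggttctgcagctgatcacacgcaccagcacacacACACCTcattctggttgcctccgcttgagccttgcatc
Kcnj5: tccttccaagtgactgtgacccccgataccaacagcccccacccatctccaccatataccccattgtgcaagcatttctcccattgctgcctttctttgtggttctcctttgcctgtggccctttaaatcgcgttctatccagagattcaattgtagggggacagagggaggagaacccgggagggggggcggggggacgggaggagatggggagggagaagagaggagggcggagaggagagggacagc
The core element began at position -233 in Hcn4 and at -38 in Kcnj3, counted back from -1 at the base before the RefSeq start. The RefSeq start lay 563 bases upstream of the gene model in the deposited table for Hcn4, 1186 bases upstream for Kcnj3 and 107 bases upstream for Kcnj5. The other 3 entries start inside the locus the table gives, 22013 bases from its 5′ end for Kcnh2 and 35900 and 173570 bases for Cacna1d, whose locus is joined with other genes. Hcn4 and Kcnj3 had log2 ratios of -0.30 and 0.10, and Kcnj5 had -0.32. A match gives the letters only and is no sign of binding. Tbx5 itself had 17.2 in WT and 15.7 FPKM in KD (log2 ratio -0.14), which is RNA and not protein. The paper reports, as preliminary, that staining for Tbx5 protein was lost in the interventricular zone of KD embryos and lower in their left ventricle.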

How the data were processed

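Total RNA of heart ventricles was made into Smart-Seq2 libraries by the authors and sequenced single-end. The submitters' processing notes name TopHat, Bowtie2, Cuffdiff and mm10, with no versions or roles, and the gene annotation is not given in the sources used here. The authors deposited 1 Cuffdiff table with an FPKM value per gene and group, pooled over 3 embryos. Its fold change, test statistic, p-value and q-value columns are the authors' own comparison and were not used. With 0 columns of single embryos, depth is unknown and no spread could be computed, and the fit planned for single embryos was not made.

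From the deposited FPKM, log2 ratios of KD over WT were computed for genes above 0 in both groups, and genes with a mean of at least 1 FPKM were counted at 1.5-fold. The 2 genes with too many reads for Cuffdiff are listed at 0. Starts in the table count from 0, since 6297 genes matched GENCODE M21 gene starts with 1 added and 682 as given, and are printed with 1 added. Fragments per 1000000 mapped are FPKM times the kilobases of the longest coding transcript. Named genes are the 8 members, and from each other list the genes past 1.5-fold and the highest 2. Some further genes were named after their values were seen. Members and lists were chosen with earlier results of these data known. Some genes and a sequence are not reported here. The ratio code was tested on simulated data. Python 3.11.15, pandas 2.3.3, NumPy 2.4.6 and Matplotlib 3.10.9 were used.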

Additional observations from a re-analysis of the deposited data

How the results depend on the processing

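No paired analysis was possible because embryos are pooled to 1 value per group. For the same reason no result could be recomputed with 1 embryo left out. A value was taken as unmoved within 0.1 on the log2 scale on its side of 1.5-fold, and a count within 1.5 times. The number of the 8 genes past the fold was 1, and 0 with a pseudocount of 1, with a mean of at least 5 FPKM, at 2-fold, and without genes that share a locus (an alternative chosen after seeing the data, which leaves out Kcnq1, Cacna1h and Cacna1d). It was 2 with no filter, which adds Cacna1g. The median log2 ratio of the 5 genes moved from 0.02 to 0.13 with no filter, which takes in all 8, and to -0.30 without genes that share a locus, which keeps Hcn4, Kcnh2 and Kcnj5 of the 5. The number of all genes past the fold moved from 742 to 331 with a pseudocount of 1, 3321 with no filter, 184 with a mean of at least 5 FPKM and 197 at 2-fold. The number of other channel genes past it moved from 3 to 1, 24, 0 and 1 under these, and their median log2 ratio from 0.13 to 0.31 with no filter and 0.40 with a mean of at least 5 FPKM, where 2 genes remain. The low levels of most channel genes and the unknown depth limit what these ratios can show.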

Other observations

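Regulators of pacemaker and chamber identity give the setting in which these channel genes are expressed. Of 9 genes listed for the sinus node and chambers, 7 had a mean of at least 1 FPKM, with a median log2 ratio of -0.07. Tbx18, a transcription factor of the sinus node that is also on the epicardial marker list, was the 1 past 1.5-fold, with 3.46 in WT and 6.56 FPKM in KD (log2 ratio 0.92). Tbx3, which holds the pacemaker program in conduction tissue, had 3.53 and 3.11 FPKM (-0.19), and Shox2 and Isl1, factors of the sinus node and its progenitors, were below 1 FPKM in both groups, with 0.282 and 0.589 FPKM and with 0.559 and 0.361 FPKM. Nkx2-5, which keeps chamber muscle apart from the node, had 224 and 247 FPKM (0.14).

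Of 7 other cardiac transcription factor genes, 1 was past 1.5-fold, Irx5, which shapes potassium current across the ventricular wall, with 7.14 in WT and 14.6 FPKM in KD (log2 ratio 1.03). Its relative Irx3, active in the fast conduction system, had 5.51 and 8.16 FPKM (0.57), just under the fold, and the highest 2 of the list, Hand1 and Tbx20, had 86.8 and 94.1 FPKM (0.12) and 53.3 and 44.8 FPKM (-0.25). Kcnd2, a potassium channel gene known to be repressed by Irx5 in adult ventricle, had 0.0387 in WT and 0.113 FPKM in KD and was marked by Cuffdiff as having too few fragments. The signal regulator Rgs4, named after its values were seen, had 1.46 and 0.447 FPKM, a mean below 1 FPKM.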
